A study of Mus musculus with 6 samples.

Results

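The lipocalin and Bpif genes of the nasal glands were followed in the vomeronasal organ (VNO), a pheromone-sensing pouch at the base of the nasal septum, of wild-type mice and of mice without AP-2e, the transcription factor made from Tfap2e. They were taken by gene symbol: 10 names were listed, and 8 of them (Lcn3, Lcn4, Lcn11, Obp1a, Obp2a, Bpifb9a, Bpifb9b and Bpifb3) had a probe set annotated with 1 gene, out of 22180 genes tested. In the RefSeq gene table Lcn13 is an older name of Obp2a and Lcn14 an older name of Obp2b, so Lcn13 is covered by Obp2a, and Obp2b is described beside it. Whole VNO RNA at postnatal day 17 was measured on 1 Affymetrix array per sample, with 3 samples labelled wild-type and 3 labelled AP-2e null. The titles call the samples biological replicates, named WT1 to WT3 (wild-type) and null1 to null3 (AP-2e null) from here on by their number in the titles. The labels do not say how the null allele was made or how many animals went into a sample.

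Lipocalins are small secreted proteins folded into a barrel with a pocket for greasy molecules, and the odorant-binding proteins among them are made by nasal glands and dissolve odorants in the mucus. Lcn3 and Lcn4 code for the vomeronasal secretory proteins, which are made by glands of the VNO and the septum and are candidates for carrying pheromones to the sensory neurons. Proteins with the BPI fold, named after the bactericidal/permeability-increasing protein, are secreted by airway and oral epithelia and bind lipids, and Bpifb9a codes for vomeromodulin, a product of nasal glands.

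On every AP-2e null array Tfap2e was lower than on every wild-type array (5.97 to 6.09 against 6.46 to 6.92 on the log2 scale), a difference of -0.68 (SE 0.13) that did not pass limma (adjusted p = 0.431), and which part of the gene is missing is not stated in the labels. The neuron markers Omp, Gnao1, Gnai2 and Trpc2 were measured on every array, with the lowest value of each at 9.46, 9.79, 10.52 and 6.75. Omp and Gnao1 were lower on every AP-2e null array, with differences of -0.41 and -0.68, and neither passed (adjusted p = 0.873 and 0.331). Of 8 vomeronasal neuron markers listed, 3 were lower on every AP-2e null array, as were 3.64% of all genes. Means were lower for 5 of the 8 and higher for 3, with a median difference of -0.03, and Gnai2 differed by 0.11. WT3 correlated least with the rest across all probe sets (mean r = 0.973, against 0.978 to 0.981). The array null1 alone had a high signal of Xist, the X-inactivation RNA, at 10.64 against 3.55 to 3.58, and alone had a low signal of the Y-linked gene Eif2s3y, at 3.62 against 7.48 to 8.29. These arrays are therefore named wherever a member's value rests on them.

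No member passed the comparison of AP-2e null with wild-type VNOs. In limma 0 of the 8 members had a Benjamini-Hochberg adjusted p under 0.05 over all genes, and 0 had an unadjusted p under 0.05. The background over all 22180 genes was 0.225% for the adjusted threshold (0.216% lower and 0.00902% higher in AP-2e null VNOs) and 4.4% for the unadjusted one (2.49% lower and 1.9% higher). The rule of 2-fold and an unadjusted p under 0.05 took 0.464% of all genes and 0 members. The values of the genotypes overlapped for all 8 members, whereas they did not overlap for 7.06% of all genes, with AP-2e null lower for 3.64%. The mean in AP-2e null VNOs was lower for 4 members and higher for 4, and lower for 50.6% of all genes, with a median difference of -0.10 on the log2 scale against 0.00 for all genes, and with arrays centred on their medians the split was 6 lower and 2 higher, a setting in which 62.0% of all genes were lower. The members moved far between arrays: 5 of the 8 spanned at least 1 log2 unit over the 6 arrays, as did 7.4% of all genes, and 4 spanned at least 4 units, as did 0.352%. In whole-organ RNA fewer cells of a type and less RNA per cell cannot be told apart.

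**Figure D1:**
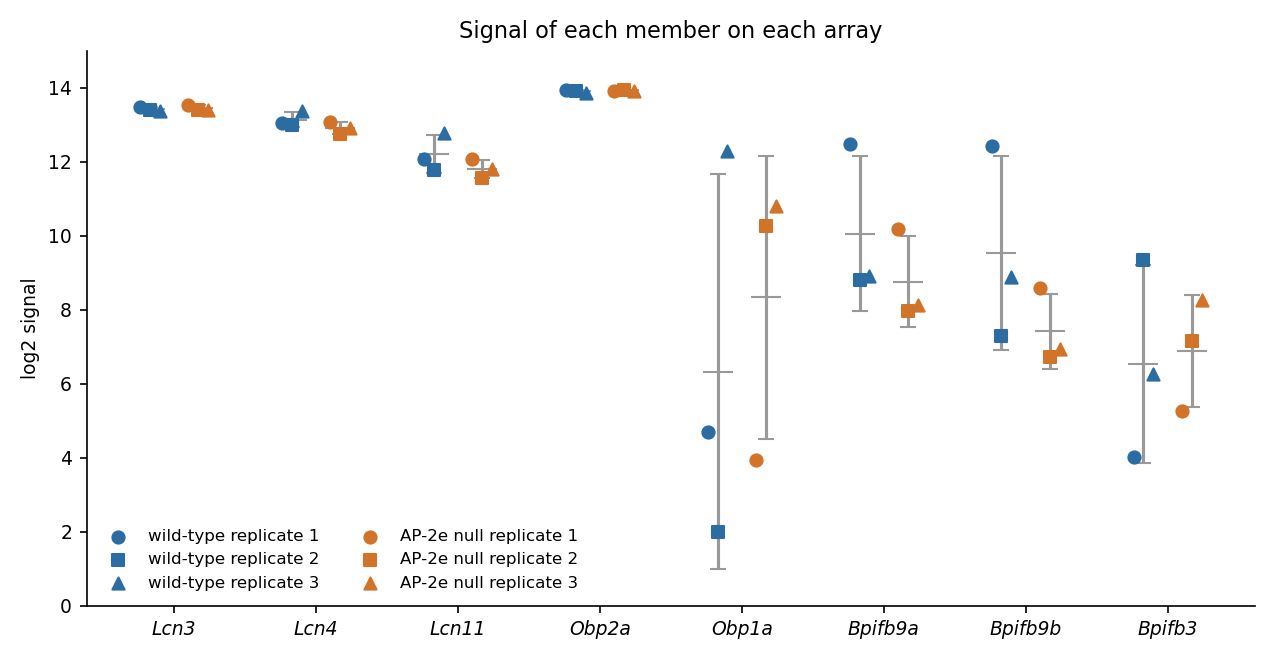
Log2 signal of the 8 members on each of the 6 arrays, wild-type in blue and AP-2e null in orange, with marker shape for the replicate number and grey bars for the mean ± SD of 3 arrays. Obp2a, Lcn3, Lcn4 and Lcn11 stay within 1.22 units, while Obp1a runs from 2.0 to 12.29.

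**Figure D2:**
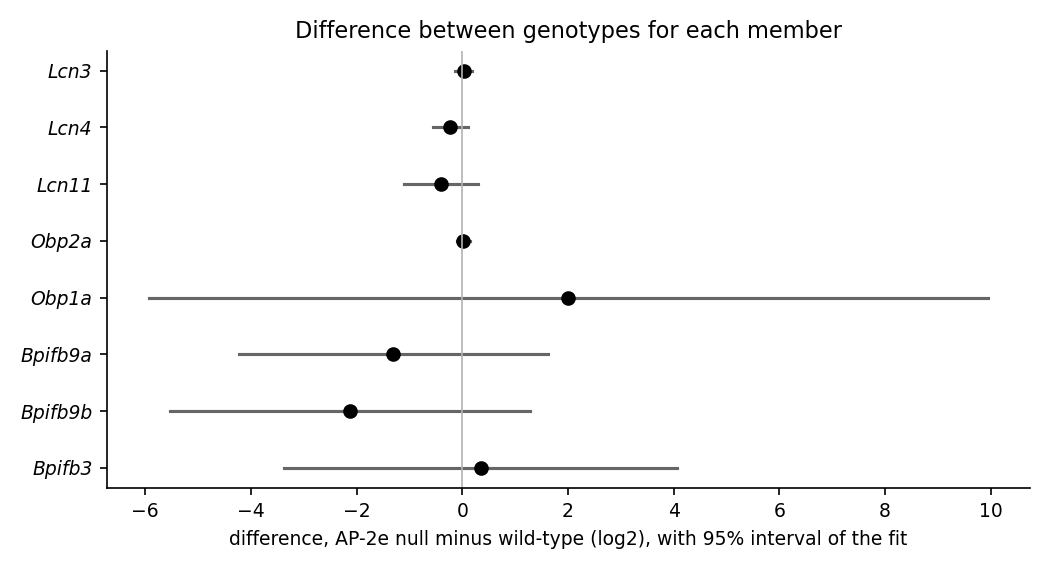
Difference between genotypes (AP-2e null minus wild-type, log2) for each member, with points for the estimate and lines for its 95% interval in the limma fit. Every interval includes 0, and that of Obp1a, from -5.93 to 9.94, is the widest.

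Of the genes for the vomeronasal secretory proteins, Lcn3 stayed within 0.16 log2 units over the 6 arrays and Lcn4 within 0.62, where the median range of all genes was 0.38. Lcn3 read 13.49, 13.41 and 13.37 in WT1, WT2 and WT3 and 13.53, 13.41 and 13.41 in null1, null2 and null3. Its means of 13.42 ± 0.06 and 13.45 ± 0.07 (SD, n = 3 each) differed by 0.03 (SE 0.06, 95% interval -0.13 to 0.19, adjusted p = 0.944), and the sign turned with arrays centred on their medians. Lcn3 was thus held to the narrowest interval of the members after Obp2a. Its signal lay near the highest signals of the arrays (13.87 to 13.95), where quantile scaling can compress differences. A change in its RNA could therefore be understated. Lcn4 read 13.03, 13.00 and 13.36 in wild-type and 13.06, 12.74 and 12.92 in AP-2e null VNOs. The highest value was that of WT3 and the lowest that of null2, and the groups overlapped through null1. The difference was -0.23 (SE 0.13, 95% interval -0.56 to 0.11, adjusted p = 0.873), and it was -0.11 without WT3.

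Obp2a, an odorant-binding protein of the nasal mucosa, had the highest signal of the whole table on all 6 arrays. It read 13.95, 13.91 and 13.87 in wild-type and 13.92, 13.95 and 13.91 in AP-2e null VNOs, a difference of 0.02 (SE 0.05, 95% interval -0.11 to 0.14, adjusted p = 0.949) whose sign also turned with arrays centred on their medians. Quantile scaling of arrays can compress differences at the top of the range, where Obp2a lies, so differences in its RNA can be compressed here. Its near neighbour Obp2b gave 13.70, 13.66 and 13.61 in wild-type and 13.74, 13.66 and 13.68 in AP-2e null VNOs. The aligned parts of their upstream regions were identical at 214 of 217 bases (98.6%), and whether the probe sets also bind each other's transcripts was not tested, so the values of the genes may not be separate.

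Lcn11, a lipocalin gene that lies beside Lcn3 on chromosome 2, varied more. It read 12.06, 11.78 and 12.78 in wild-type and 12.06, 11.56 and 11.80 in AP-2e null VNOs, so that WT3 stood above the other 5 arrays, which lay between 11.56 and 12.06. The difference was -0.40 (SE 0.28, 95% interval -1.11 to 0.30, adjusted p = 0.873), and -0.12 without WT3. The interval for Lcn11 reached down to -1.11, further than those for Lcn3 or Obp2a.

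Obp1a had the largest spread within genotypes of all 22180 genes, with an SD of 4.64 on the log2 scale, and also the largest range. This X-linked gene codes for another odorant-binding protein. Its log2 signal was 4.68, 2.0 and 12.29 in WT1, WT2 and WT3 and 3.93, 10.26 and 10.81 in null1, null2 and null3. WT3, null2 and null3 were thus high, and the other 3 arrays were low, with WT2 below the arrays' lower quartiles (3.58 to 3.66), where signal can be background. The means of 6.33 ± 5.34 and 8.33 ± 3.83 (SD, n = 3 each) differed by 2.01 (SE 3.19, 95% interval -5.93 to 9.94, adjusted p = 0.909). Leaving out WT2 turned the difference to -0.15, and leaving out WT3 raised it to 4.99. With array weights it was 3.66. Without WT1 it was 1.19, and without null1, null2 or null3 it was 4.21, 1.05 or 0.77. The array with high Xist signal, null1, read 3.93 for Obp1a, and WT1 and WT2, where the Y-linked gene Eif2s3y read 8.29 and 8.27, read 4.68 and 2.0. The part of the sex of the samples in the Obp1a values was not tested.

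**Figure D3:**
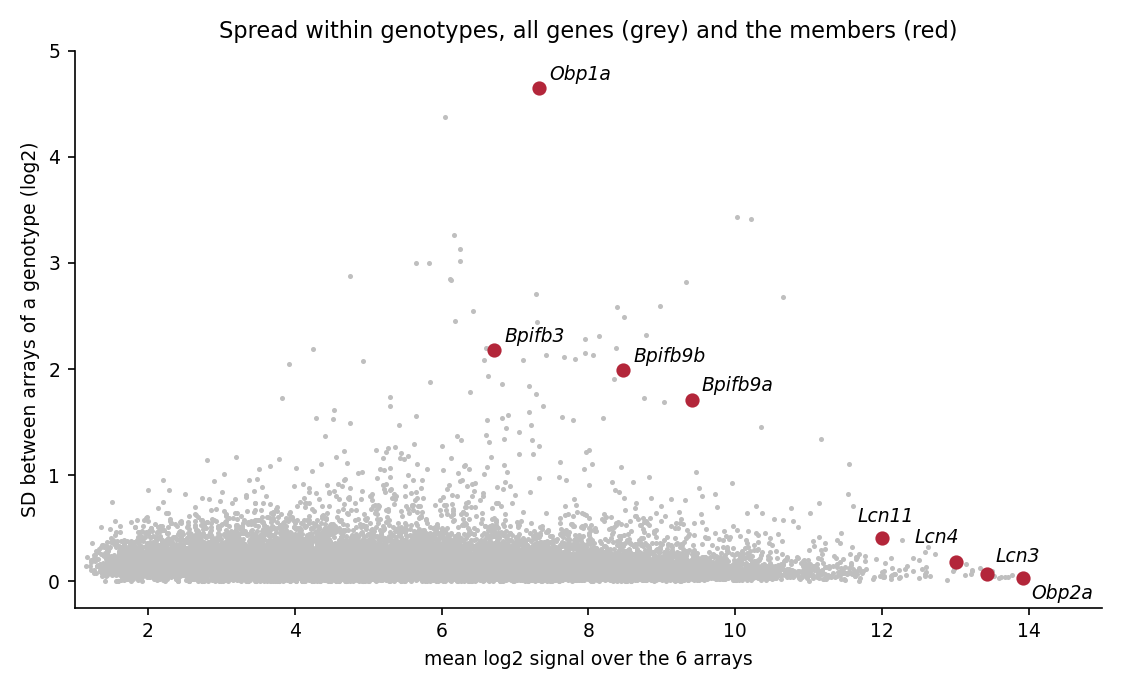
Mean log2 signal over the 6 arrays against the SD between arrays of a genotype (log2) for all 22180 genes in grey, with the 8 members in red. Obp1a lies above every other gene, Bpifb3, Bpifb9b and Bpifb9a lie among the 49 genes of largest spread, and Obp2a and Lcn3 have the smallest spread of the members.

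The genes next to Obp1a on the X chromosome moved with it. The RefSeq table orders this stretch as Pbsn, Gm14744, 5430402E10Rik, Obp1a, Gm5938, Obp1b, Gm14743, 4930480E11Rik and Prrg1. Obp1b, a close relative of Obp1a, read 3.76, 3.37 and 10.58 in wild-type and 3.99, 6.30 and 5.90 in AP-2e null VNOs. It was highest on the same array as Obp1a, with the same 3 arrays above the other 3. The predicted gene Gm14743 read 3.32, 2.06 and 11.73 in wild-type and 2.65, 7.90 and 8.60 in AP-2e null VNOs, and only Obp1a had a larger range over the arrays among all genes tested. Gm14744 read 10.77, 7.20 and 13.67 in wild-type and 5.76, 11.81 and 12.13 in AP-2e null VNOs, and 5430402E10Rik read 10.52, 6.64 and 13.23 and then 5.82, 11.72 and 12.20. For this pair WT1 came nearer to the high arrays than it did for Obp1a. Gm5938 was dim throughout, at 2.56, 2.92 and 4.36 and then 2.67, 4.58 and 4.88, with the same 3 arrays on top. At the edges of the stretch the values were flat: Pbsn, which codes for the prostate lipocalin probasin, stayed between 2.39 and 2.56, 4930480E11Rik between 2.81 and 3.49, and Prrg1 between 5.56 and 6.03. No gene of this stretch passed the comparison of genotypes, and the predicted genes were chosen for their place after their values were seen.

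The sequences just before the starts of Obp1a and Obp1b are shown because both genes followed the same arrays. They are RefSeq promoter entries of build GRCm38.p6, the 120 bases before the start read 5′ to 3′ on the gene's strand, at chrX:78091375-78091494 (minus strand) and chrX:78186688-78186807 (plus strand), with TATAAA, the TATA box core, in capitals.
Obp1a: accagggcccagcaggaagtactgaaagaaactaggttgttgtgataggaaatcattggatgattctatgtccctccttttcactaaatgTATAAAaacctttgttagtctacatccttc
Obp1b: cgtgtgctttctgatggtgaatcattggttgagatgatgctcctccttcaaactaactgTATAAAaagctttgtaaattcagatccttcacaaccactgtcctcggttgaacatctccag
Both hold TATAAA, beginning 30 bases before the start in Obp1a and 61 bases before it in Obp1b. Over the 219 aligned bases of their 250 upstream bases 68.5% were identical. The upstream bases of Obp1b and Gm14743 were identical at all 241 aligned positions, and those of Gm14744 and 5430402E10Rik at 248 of 250, and whether signals within each of these pairs are shared between copies was not tested.

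Outside the X chromosome, the genes with array profiles nearest to Obp1a included secretory genes. Nearness was the root mean square difference of log2 values, each gene centred on its own mean over the 6 arrays, and setting it against single members was chosen after the data were seen. Predicted genes left out, Obp1b was nearest at 2.19, followed by Klk1 at 2.66, Klk1b5, Car6, Crisp3, Mup5, the peptide hormone gene Cck, the ribosomal gene Rps13, Csn3 and Vmn1r188 at 3.25. These are ranks and not close matches: the genes nearest to Bpifb3 and Bpifb9a lay at 0.41 and 0.66, though Obp1a also varied more. Klk1, Klk1b5 and Crisp3 read higher on WT2 than on WT1, while Obp1a was lowest on WT2. Klk1, a tissue kallikrein of salivary and other exocrine glands, read 8.28, 10.47 and 12.03 in wild-type and 7.29, 13.42 and 12.42 in AP-2e null VNOs. Car6, the secreted carbonic anhydrase of saliva, read 7.93, 7.07 and 10.02 in wild-type and 4.41, 9.93 and 8.36 in AP-2e null VNOs. Crisp3, a secreted protein of salivary glands, read 3.86, 5.11 and 6.18 and then 3.04, 10.63 and 7.93. The array null1 was the lowest of the 6 arrays for all 3 of these genes, and null2 was the highest for Klk1 and Crisp3. The urinary protein gene Mup5, a lipocalin, read 4.35, 3.02 and 6.56 in wild-type and 3.33, 4.50 and 4.71 in AP-2e null VNOs, with WT3 highest as for Obp1a. The mean of the 37 gland secretion genes ran from 7.84 to 8.32 in wild-type and from 7.91 to 8.22 in AP-2e null VNOs, lowest on WT3, where Obp1a was highest, and that of the 28 gland identity genes from 8.62 to 8.67 and from 8.51 to 8.69. The part of the amount of gland tissue in the Obp1a values was not tested.

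Bpifb9a and Bpifb9b, neighbours at the end of the Bpif cluster on chromosome 2, followed the same arrays. Bpifb9a read 12.47, 8.80 and 8.90 in WT1, WT2 and WT3 and 10.17, 7.97 and 8.13 in null1, null2 and null3. Bpifb9b read 12.42, 7.28 and 8.90 in wild-type and 8.59, 6.72 and 6.93 in AP-2e null VNOs. WT1 was highest for both, and null2 and null3 were lowest. The difference of Bpifb9a was -1.30 (SE 1.18, 95% interval -4.23 to 1.63, adjusted p = 0.873), from 10.06 ± 2.09 to 8.76 ± 1.23 (SD, n = 3 each). That of Bpifb9b was -2.12 (SE 1.37, 95% interval -5.52 to 1.29, adjusted p = 0.873), from 9.53 ± 2.62 to 7.41 ± 1.02 (SD, n = 3 each). Both rest on WT1: without it they were -0.09 and -0.68, while without any other single array they lay between -2.01 and -0.91 for Bpifb9a and between -3.24 and -1.77 for Bpifb9b. With array weights the difference of Bpifb9a was -2.20.

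The upstream sequences of this pair are shown because the genes had the same highest and lowest arrays and are near copies upstream. Whether each probe set also binds the other's transcript was not tested, so their values may not be separate. They come from RefSeq, build GRCm38.p6, at chr2:154257759-154257878 and chr2:154307124-154307243, both on the plus strand, 120 bases read 5′ to 3′ with TATAAA in capitals.
Bpifb9a: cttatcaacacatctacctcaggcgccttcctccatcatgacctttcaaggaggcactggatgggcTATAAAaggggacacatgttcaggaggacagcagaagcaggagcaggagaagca
Bpifb9b: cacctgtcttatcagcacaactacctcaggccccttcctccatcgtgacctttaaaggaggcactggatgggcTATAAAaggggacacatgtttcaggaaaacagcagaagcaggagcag
Over the 242 aligned bases of their 250 upstream bases 230 were identical, and TATAAA begins 54 and 47 bases before the annotated starts. All 8 members had a promoter entry, and 5 of them (Lcn3, Obp1a, Obp2a, Bpifb9a and Bpifb9b) hold TATAAA within these 120 bases on the gene's strand, as do 4.19% of the 32851 entries of the table. The palindromic AP-2 consensus GCCNNNGGC, searched on both strands of 250 upstream bases, was found in 2 members, Lcn11 and the second annotated start of Bpifb3, and in 13.7% of all entries.

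Bpifb5, the gene before Bpifb9a in the cluster, was the next nearest in profile to Bpifb9a (0.90) after Bpifb9b (0.66). It read 8.67, 7.08 and 5.15 in wild-type and 7.95, 5.96 and 6.47 in AP-2e null VNOs, so that WT1 and null1 were again the highest of their genotypes, but WT3 was the lowest of all. Bpifa2, the parotid secretory protein gene, read 6.42, 4.19 and 4.29 in wild-type and 6.31, 5.26 and 5.32 in AP-2e null VNOs, and had the same arrays on top, but was only the ninth nearest, behind genes such as Cabs1, Olfr503 and Klra9. Spink4, a secreted protease inhibitor and the nearest after Bpifb5, read 6.94, 5.75 and 3.99 and then 6.08, 4.73 and 5.10. The differences of these 3 genes were -0.17, 0.66 and -0.26, with adjusted p of 0.981, 0.878 and 0.957.

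**Figure D4:**
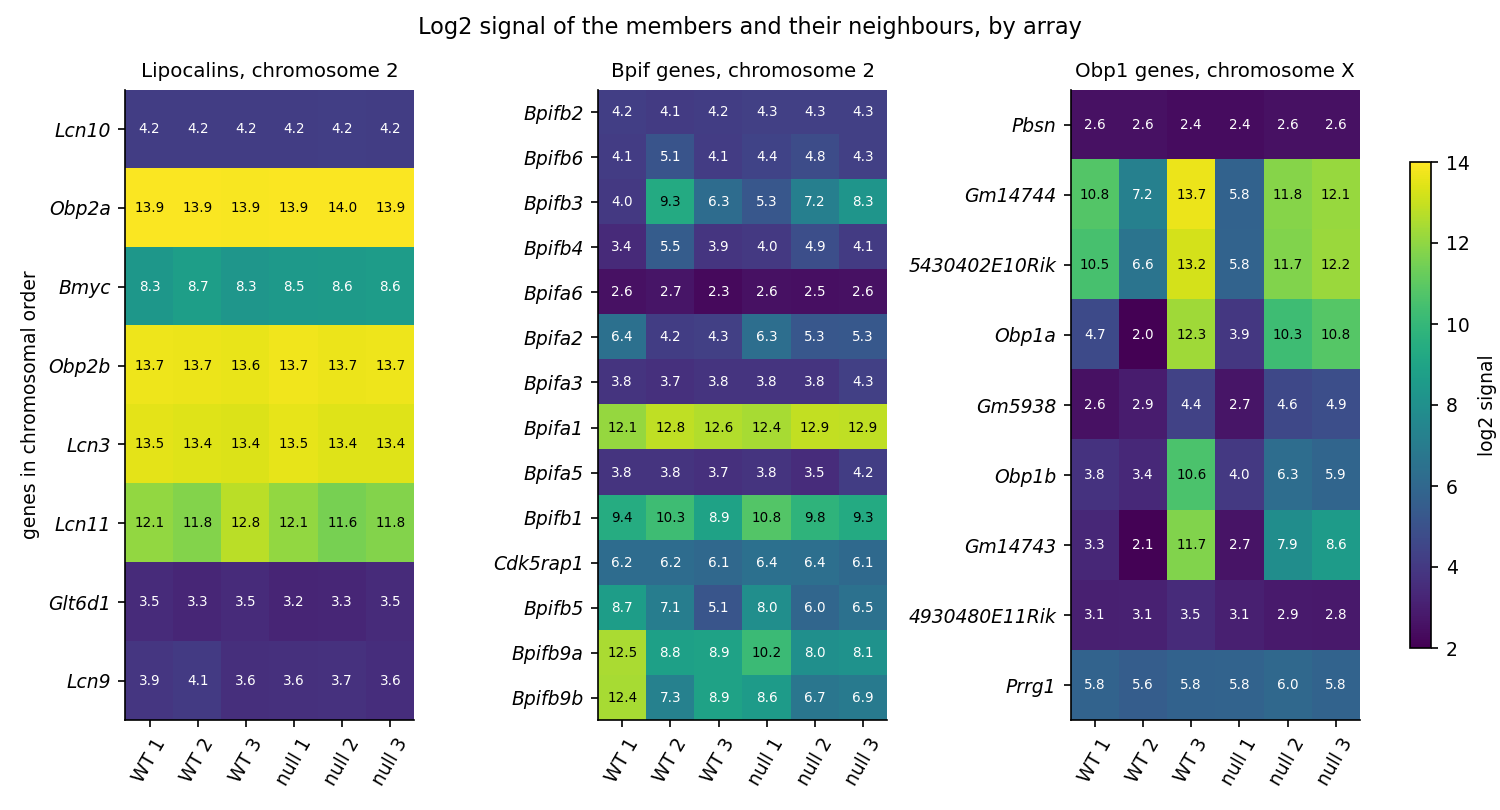
Log2 signal by array (colour, with the value in each cell) for 7 members (Lcn4 lies elsewhere) and their neighbours in chromosomal order, in the lipocalin and Bpif stretches of chromosome 2 and the Obp1 stretch of the X chromosome. Colour changes along the rows from Gm14744 to Gm14743 and in Bpifb9a and Bpifb9b, while the rows of Obp2a, Obp2b and Lcn3 are even across arrays.

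Bpifb3 followed yet another order of arrays. This BPI-fold gene read 4.01, 9.35 and 6.26 in wild-type and 5.25, 7.16 and 8.25 in AP-2e null VNOs, highest on WT2 and lowest on WT1. The means of 6.54 ± 2.68 and 6.89 ± 1.52 (SD, n = 3 each) differed by 0.35 (SE 1.5, 95% interval -3.38 to 4.07, adjusted p = 0.972). The difference was -0.92 without WT1, 1.75 without WT2 and -0.34 without null3, and 0.21 to 1.17 without any other single array. With array weights it was 1.06.

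The 4 genes nearest to Bpifb3 in profile are known from the main olfactory epithelium, and Olfr1200, Aox2, Olfr124, Myl12a, Cnga2 and Chp1 came next. S100a5, a calcium-binding protein of olfactory neurons, read 4.20, 8.62 and 6.55 in wild-type and 5.60, 7.72 and 8.27 in AP-2e null VNOs, which is the same order of arrays. Gpx6, a glutathione peroxidase of olfactory mucosa, read 5.04, 9.16 and 6.88 and then 6.33, 7.74 and 8.02. Gnal, the G protein subunit of olfactory neurons, read 4.35, 7.55 and 5.88 and then 5.24, 7.14 and 7.12, and Cyp2g1, a cytochrome P450 of olfactory supporting cells, read 4.33, 10.13 and 7.41 and then 7.27, 9.70 and 10.01. Of 12 markers of olfactory neurons listed after the values were seen, 10 were measured, 4 of these spanned at least 1 log2 unit, and their mean ran from 7.10 to 8.36 in wild-type and from 7.41 to 8.22 in AP-2e null VNOs. The list holds S100a5, Gnal and Cnga2, which are among the genes named for their nearness to Bpifb3 and are 3 of its 4 wide genes, so its mean is no separate measure. The mean of the other 7 genes ran from 8.44 to 8.81 in wild-type and from 8.40 to 8.79 in AP-2e null VNOs, lowest on null1 and highest on WT2. Rtp1, a chaperone of odorant receptors, read 10.59, 10.40 and 10.45 in wild-type and 10.97, 10.82 and 10.97 in AP-2e null VNOs. It was higher on every AP-2e null array, as were 759 of all 22180 genes, and its means differed by 0.44. Of the 10 measured genes it was the 1 with an unadjusted p under 0.05 in limma, as were 4.4% of all genes. It did not pass after Benjamini-Hochberg adjustment (adjusted p = 0.370). The 11 measured sustentacular cell markers had a mean of 8.03 to 8.88 in wild-type and 7.98 to 8.86 in AP-2e null VNOs, highest on WT2. They include Cyp2g1, named above for its nearness to Bpifb3, so the mean of this list is no separate measure either. The part of olfactory epithelium in the Bpifb3 values was not tested.

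**Figure D5:**
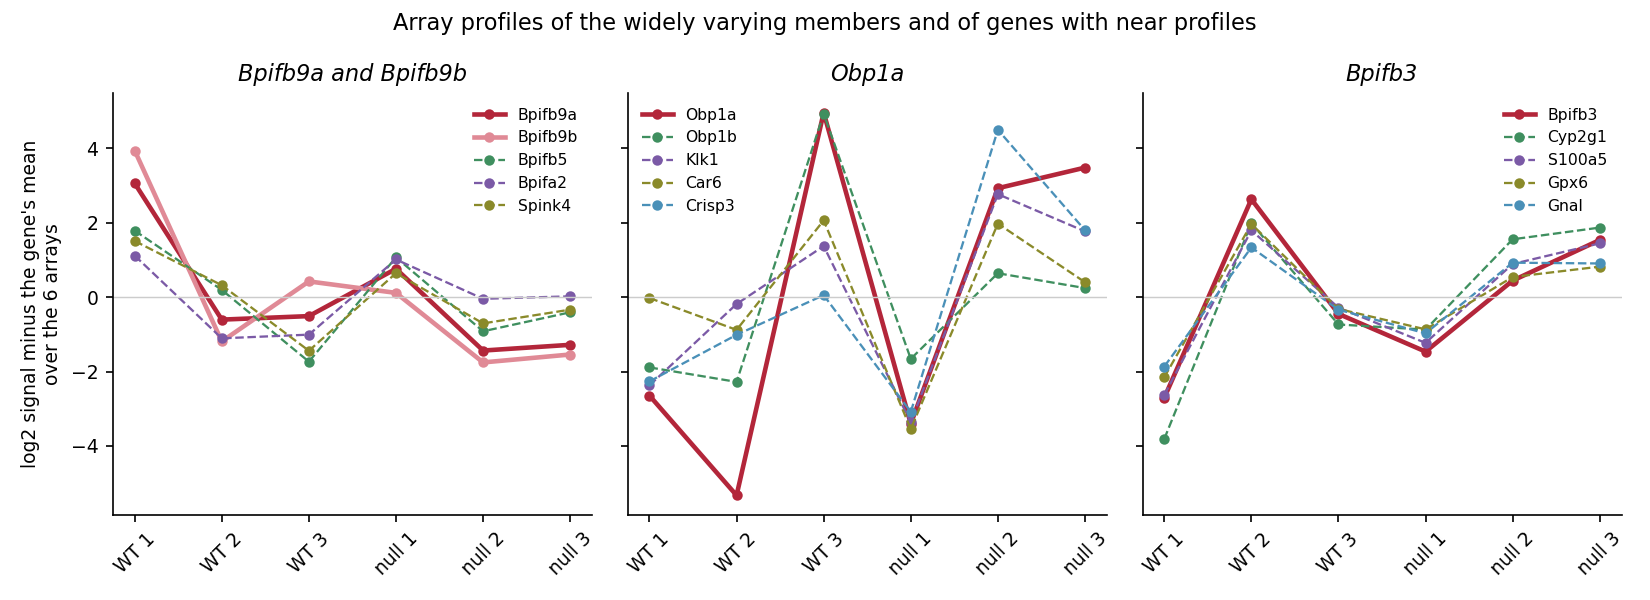
Log2 signal minus the gene's mean over the 6 arrays, for the members with wide ranges (solid red lines) and other genes (dashed lines). The other genes are among the 10 nearest in profile to Bpifb9a, Obp1a or Bpifb3, which for Obp1a is a rank and not a close match. Lines join the arrays of a gene only to guide the eye, since replicates have no order. Bpifb9a and Bpifb9b peak on WT1, Obp1a on WT3 and Bpifb3 on WT2.

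The other lipocalins did not pass either. Of 49 listed genes 23 had a probe set of their own, 0 passed in limma and 0 had an unadjusted p under 0.05, with a median difference of -0.03. The list includes Lcn2, the iron-siderophore binder of innate defence, at 10.32 ± 0.35 and 10.40 ± 0.03 (SD, n = 3 each), and Apod, a lipid carrier, at 9.43 and 9.48. The smallest unadjusted p-values were those of Lcn9 at -0.23, Lcn6 at -0.21, Rbp4, the retinol carrier, at 0.24 and Mup21 at -0.14, between 0.105 and 0.359 in limma. Only 4 of the 23 genes spanned at least 1 log2 unit, and Obp1b was the only 1 to span 4.

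Among the 14 other BPI-fold genes 0 passed in limma and 0 had an unadjusted p under 0.05. Bpifa1, the abundant antimicrobial and surfactant protein of the upper airway also called SPLUNC1, read 12.12, 12.84 and 12.61 in wild-type and 12.42, 12.89 and 12.87 in AP-2e null VNOs, a difference of 0.20 (adjusted p = 0.881). WT1, which was highest for Bpifb9a, was lowest for Bpifa1. Bpifb1 read 9.41, 10.25 and 8.94 in wild-type and 10.78, 9.80 and 9.33 in AP-2e null VNOs. The smallest unadjusted p-values belonged to Bpifb2 at 0.11 (higher on every AP-2e null array), Bpifc at -0.36, Bpifa3 at 0.20 and Bpifa2, and Lbp and Pltp, plasma lipid-binding members of the family, differed by -0.09 and 0.19. The members Bpifb9a, Bpifb9b and Bpifb3 spanned 4.50 to 5.70 log2 units over the arrays, against a median of 0.86 for the other 14 genes. Several of the latter were dim: Bpifa6, Bpifa3 and Bpi had wild-type means of 2.51, 3.76 and 3.84, near or below the arrays' lower quartiles (3.58 to 3.66). A gene near background can show little range, and the part of signal level in this contrast was not tested. Of these 14 genes 5 spanned at least 1 unit, among them Bpifb5 at 3.52, Bpifa2 at 2.22 and Bpifb4 at 2.03.

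Other secretions of glands were measured on the same arrays as a frame for the members. Of 37 genes 0 passed in limma and 2 had an unadjusted p under 0.05 (5.41% against 4.4% of all genes): Agr3, a disulfide isomerase of secretory cells, at -0.41 and Wfdc2, a protease inhibitor of airway secretions, at -0.29, both lower on every AP-2e null array and both with an adjusted p of 0.873. Sftpd, Muc4, Reg3g and Ltf differed by -0.16, -0.29, -0.16 and 0.00. Dmbt1, a mucosal scavenger protein, differed by 0.06 and was higher on every AP-2e null array. The antimicrobial protein Ltf, lactoferrin, stayed between 12.87 and 12.89 on all 6 arrays, a range of 0.02 against 0.08 for Obp2a. Its signal also lay toward the top of the range, where quantile scaling can compress differences. Among 28 measured genes of gland cell identity 0 passed in limma, 4 had an unadjusted p under 0.05 (14.3% against 4.4% of all genes), and all 4 were lower in AP-2e null VNOs: the water channel Aqp4 at -0.27, the keratin Krt8 at -0.34, Spdef, a transcription factor of mucous cells, at -0.42 and Foxa1, a transcription factor of airway and gland epithelium, at -0.36, each with an adjusted p of 0.873. The epithelial markers Epcam and Slc12a2, a chloride transporter of secreting cells, differed by 0.03 and -0.01. Other genes of the list went the other way. Sox9, Sox10 and Foxc1 differed by 0.41, 0.21 and 0.24, with unadjusted p of 0.155, 0.057 and 0.057 in limma. Means in AP-2e null VNOs were lower for 13 of these 28 genes and higher for 15. With arrays centred on their medians 19 were lower, a setting in which 62.0% of all genes were lower.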

How the data were processed

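RNA of 6 VNO samples, 3 wild-type and 3 AP-2e null, was measured on 1 array each. The deposited table holds log2 signals per probe set, and per the submitters' processing notes the authors used RMA and the Transcriptome Analysis Console, with versions, settings and genome build not given in the sources used. RMA scales arrays by quantiles, which can compress differences at the top of the range. Of 41345 probe sets, 23521 had 1 gene symbol, 1814 several and 16010 none, and where several probe sets shared a gene, the brightest on average stood for it (each member had 1). Symbols were checked by Entrez identifier against RefSeq (GRCm38.p6), which matched 23328 and changed 0.

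Genotypes were set against each other for 22180 genes by limma 3.58.1 under R 4.3.3, with moderated variances and no covariate. Tests were 2-sided, and p-values were adjusted by Benjamini-Hochberg to a threshold of 0.05. P-values set the difference between genotypes against the spread between these samples, and the labels do not say how many animals a sample holds. The number of arrays limits the precision. In a test on simulated data of 22180 genes, 86 of 100 genes changed by 1 on the log2 scale and 99 of 100 changed by 2 were recovered. There were 9 false calls. The changed genes were drawn from all genes, whose median SD within genotypes was 0.14 on the log2 scale. Obp1a, Bpifb3, Bpifb9b and Bpifb9a had SDs of 4.64, 2.18, 1.99 and 1.71, so these rates do not apply to them. The members and lists were chosen with earlier results of these data known. Named genes were Tfap2e, all members, up to 4 genes of each family or gland list with the smallest p, the 3 with the highest mean, leading genes of the cell type lists, Xist, and the 10 genes nearest in array profile to the members' mean. Ddx3y, also in that rule, was not analysed here. Alternatives covered moderation, probe sets, a filter on dim genes, scaling, array weights, a 2-fold rule, a replicate block and dropping arrays 1 at a time. Promoters were aligned globally with free end gaps in Biopython 1.88, and plots were drawn with matplotlib 3.10.9.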

Additional observations from a re-analysis of the deposited data

How the results depend on the processing

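No member, and no gene of the other lipocalin, other BPI-fold, gland secretion or gland identity lists, passed under any of the 15 alternatives tried. Over all genes 50 passed, 103 when 2-fold and an unadjusted p under 0.05 were asked instead, 22 with the replicate block, and between 17 (without WT2) and 32 (without WT3) with 1 array left out. Same-numbered samples were not paired by the data: over genes, the deviations of replicates 1, 2 and 3 correlated with r of 0.04, 0.11 and 0.02 between genotypes, and the replicate block changed no call of a member.

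Signs turned for small or widely spread differences. With arrays centred on their medians Lcn3 was at -0.00936 and Obp2a at -0.0170, and with array weights Lcn3 was at -0.00686. Array weights also moved Obp1a from 2.01 to 3.66, Bpifb9a from -1.30 to -2.20, Bpifb9b from -2.12 to -3.04, Bpifb3 from 0.35 to 1.06 and Obp2a from 0.0183 to 0.00775. With 1 array left out the differences lay between -0.0148 and 0.0598 for Lcn3, -0.00105 and 0.0363 for Obp2a, -0.15 and 4.99 for Obp1a, -0.92 and 1.75 for Bpifb3, -0.30 and -0.11 for Lcn4 and -0.62 and -0.12 for Lcn11. Lcn3 also turned to -0.000433 without WT3, and Bpifb3 to -0.335 without null3. The cause was not tested.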

Other observations

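Several genes outside the members, secretory genes among them, also spanned at least 4 log2 units over the arrays, though none as much as Obp1a (10.29). Dcpp3, of the demilune cell and parotid protein family, read 12.62 on WT3 against 4.62 to 5.30 elsewhere. Its relatives Dcpp1 and Dcpp2 were lowest on that same array, at 10.64 and 7.94, against 11.22 to 12.38 and 9.99 to 11.65 on the others. Chil4, a chitinase-like protein of the nasal mucosa, read 8.60, 10.80 and 5.58 in wild-type and 10.91, 6.21 and 8.85 in AP-2e null VNOs. Scgb2b27 and Scgb1b27, secretoglobin genes, read 11.71 and 12.28 on WT3 and 2.29 and 4.57 on null1. Serpina1c, a serine protease inhibitor, read 3.58 on WT3 and between 10.25 and 10.83 elsewhere. None of these genes passed the comparison of genotypes in limma. Of the 78 genes that spanned at least 4 log2 units, 26 were V2R receptor genes, and 49, the 4 members among them, were not V1R, V2R or odorant receptor genes. Dcpp3 and the genes named after it were chosen after their values were seen.

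The profile of the members' mean, which was 0.68 above its own average on WT3 and -0.60 from it on WT2, was nearest to those of Mnd1, Cpa6, Gpx2-ps1, Olfr657, H2-T23, Mnx1, Dbpht2, Olfr1484, Cyp2c65 and Prpmp5. The root mean square difference over the 6 arrays was 0.12 for Mnd1 and 0.20 for Prpmp5. Some of them gave low signals (Olfr657 between 2.60 and 3.71, Cpa6 between 3.05 and 4.10), and the mean joins members that followed different arrays.

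The other marker lists give the frame for these values. The mean of the 8 measured myoepithelial markers, among them Acta2, Myh11 and Cnn1, ran from 8.49 to 8.87 in wild-type and from 8.34 to 8.91 in AP-2e null VNOs. That of the 11 measured markers of multiciliated cells, among them Rsph4a, Sntn and Rsph1, ran from 7.51 to 8.13 and from 7.48 to 7.77, and all 11 had lower means in AP-2e null VNOs, with a median difference of -0.26. Of the sustentacular markers, Cbr2, Cyp2f2 and Gsta4 differed by 0.00, 0.00 and 0.07. The largest difference of this list was that of Cyp2g1, at 1.71 (adjusted p = 0.873 in limma). Means were lower for 4 of its 11 genes and higher for 7, and 6 spanned at least 1 log2 unit, as did 7.4% of all genes. In limma 0 genes of these lists passed.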
